A study of Mus musculus with 4 samples.

Results

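The heat shock proteins and molecular chaperones were followed across hematopoietic stem cells (HSC) and common lymphoid progenitors (CLP) of wild-type (WT) and GRK6-/- mice. Members were chosen by gene symbol, as every gene named as a heat shock protein of the Hsp90, Hsp70, Hsp110, Hsp60, Hsp10 or small classes, a J-domain protein (Dnaja, Dnajb or Dnajc), or a subunit of the chaperonin CCT (Cct2 to Cct8 and Tcp1). The rule found 74 of the 12750 names in the files, 50 of them with a row in all 4 libraries. A few members carry the name of the family without its known activity. Hspb11 is a component of intraflagellar transport, and Hspbp1 and Hspbap1 are proteins that bind Hsp70 or a small heat shock protein.

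Both genotypes were C57BL/6 mice, and cells were taken from bone marrow. HSC were sorted as Lin-c-kit+sca-1+ cells, and CLP as cells of this phenotype that were Il-7Ra+ in addition. Age is given for the study in general, as 8 to 12 weeks, and not for each pool. GRK6-/- mice lack exons 3 to 9 of Grk6, the gene of a kinase that phosphorylates G protein-coupled receptors. No group was treated. Each of the 4 groups was 1 library of cDNA from 13 to 15 cells of 3 to 4 mice, amplified cell by cell with 20 and then 10 PCR cycles and pooled. There was therefore 1 library a group, no spread between mice could be estimated, and a difference between genotypes is a difference between 2 libraries.

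Chaperones bind unfolded or partly folded proteins and keep them from aggregating, and most use cycles of ATP hydrolysis to do so. Hsp70 proteins receive their clients from J-domain proteins and are reset by Hsp110 proteins, Hsp90 proteins finish the folding of kinases and steroid receptors, and the CCT ring encloses actin and tubulin. Some cytosolic chaperones are made at all times (constitutive), whereas their close relatives are made when heat shock factor 1 (HSF1) binds heat shock elements in their promoters after heat or other proteotoxic stress (inducible). Hematopoietic stem cells are known for a low rate of protein synthesis and for their sensitivity to misfolded protein.

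Heat shock elements and the promoters that hold them are shown first, as the sequences to which HSF1 binds. The stretches printed are bases before the transcription start in the RefSeq promoters of build GRCm38.p6, written 5' to 3' on the strand of the gene, and 63 members had such a promoter. A heat shock element is a run of inverted GAA units. The strict form of 3 units was searched as GAANNTTCNNGAA or TTCNNGAANNTTC, and the short form of 2 units, which every strict match also holds, as GAANNTTC or TTCNNGAA, in the 250 bases before the start on both strands. The strict form was in 3 of the 63 members (Dnajb6, Hspd1 and Hspe1) and in 0.466% of all promoters (0.514% of genes), and the short form was in 15 members (23.8%) and in 12.8% of all promoters (14.5% of genes). Such a match is a description of the letters and no sign of binding. The element was not confined to the inducible genes compared here, and it was not found in all of them. Of these 7 genes 4 had the short form (Hspa1a, Hspa1b, Hspb1 and Hsph1), 2 had neither form in this window (Dnajb1 and Hspb8), and the promoter of Hsp90aa1 was not matched. The 3 members with the strict form are not on the inducible list. Whether the short form is more frequent on this short list was not tested. Capitals mark the element in the promoter of Hspa1a, the stress-inducible Hsp70 (chr17:34972157-34972406, minus strand), in the promoter of Dnajb6, a J-domain protein that prevents aggregation (chr5:29735648-29735897, plus strand), and in 30 bases shared by the divergent promoters of Hspe1 and Hspd1 (chr1:55088053-55088082, written on the plus strand, that of Hspe1), where 2 strict matches overlap.
Hspa1a: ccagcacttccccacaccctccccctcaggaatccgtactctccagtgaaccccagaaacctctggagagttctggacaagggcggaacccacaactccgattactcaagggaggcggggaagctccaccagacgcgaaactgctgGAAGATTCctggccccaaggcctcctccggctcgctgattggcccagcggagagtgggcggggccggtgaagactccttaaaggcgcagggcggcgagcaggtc
Dnajb6: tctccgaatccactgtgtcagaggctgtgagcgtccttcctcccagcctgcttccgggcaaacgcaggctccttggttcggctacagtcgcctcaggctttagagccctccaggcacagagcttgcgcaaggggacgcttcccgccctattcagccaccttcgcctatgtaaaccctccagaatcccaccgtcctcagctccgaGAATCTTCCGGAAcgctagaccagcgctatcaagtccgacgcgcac
Hspe1 and Hspd1: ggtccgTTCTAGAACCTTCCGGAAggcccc

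The 250 bases of Hspa1b differed from those of Hspa1a at 3 positions (98.8% identical). In the annotated coding sequence, 82.3% of all stretches of 50 bases of Hspa1a are found letter for letter in Hspa1b, so the split of reads between these copies is uncertain. Chaperones of the endoplasmic reticulum (ER) are induced by unfolded protein in the ER through another element, searched as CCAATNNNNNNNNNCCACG on both strands. It was in 0.113% of all promoters (0.130% of genes) and in 3 of the 63 members, namely Hspa5 (BiP, the ER Hsp70), Hsp90b1 (the ER Hsp90) and Dnajc3 (an ER J-domain protein that inhibits the kinase of the unfolded protein response). The promoter of Hspa5 (chr2:34771840-34772089, plus strand) is shown with the element in capitals, and its last base lies 47 bases before the start.
Hspa5: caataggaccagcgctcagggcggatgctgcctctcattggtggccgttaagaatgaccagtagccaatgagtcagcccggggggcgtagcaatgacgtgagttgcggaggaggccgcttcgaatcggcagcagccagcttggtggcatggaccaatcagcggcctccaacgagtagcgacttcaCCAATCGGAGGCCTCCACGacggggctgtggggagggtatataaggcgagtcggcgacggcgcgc

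Values were FPKM as deposited, the fragments of a gene scaled to transcript length and to the mapped fragments of the library. This scale divides by transcript length, which takes coverage along the transcript as even. The cDNA was primed with poly(dT). Whether it covered transcripts evenly, and whether the PCR amplified all genes evenly, was not tested, which limits ratios between genes. Differences were the log2 ratio of FPKM + 1, a scale on which weakly expressed genes show too small a change, and a gene was counted as past the threshold at a 2-fold ratio, an absolute log2 ratio of at least 1. Where a library had no row for a gene it was counted as 0, the reason for missing rows is not given, and for such a gene the values are printed without a fold. The values were scaled to about 2792190 to 4362640 fragments per library by an estimate from the lowest FPKM, at which 1 fragment in a transcript of 2 kb gave 0.115 to 0.179 FPKM. In these pools fewer cells that use a gene and less RNA per cell cannot be told apart. Il7r, which defines the CLP sort, had no row in WT HSC and 1.08 FPKM in GRK6-/- HSC, against 120 in WT CLP and 75.1 in GRK6-/- CLP. Grk6 had 42.7 FPKM in WT and 89.4 in GRK6-/- HSC, and 26.9 in WT and 57.6 in GRK6-/- CLP. The deposited value covers the whole gene, exons outside the deleted ones included, so it does not check the genotype, and the libraries are named by their labels. Marker genes of other cell types differed between the libraries. The 10 erythroid markers summed to 338, 1701, 154 and 18111 FPKM in that order (HSC before CLP, WT before GRK6-/- in each, as in all lists of 4 values here), with 6 or 7 of them present in a library, and Hba-a2 alone had 17219.5 in GRK6-/- CLP. The 8 B lineage markers summed to 41.9, 35.5, 239 and 1562 FPKM, with 1, 3, 7 and 7 present. Ebf1 had no row in either HSC library, whereas Cd79b had 41.9, 34.8, 39.1 and 207 FPKM and made up most of the sum in HSC. The 10 neutrophil and myeloid markers summed to 17848, 11341, 9385 and 7855 FPKM, with 7 or 8 present. The 5 megakaryocyte markers summed to 149.6, 10.9, 13.5 and 117 FPKM, with 4, 2, 3 and 5 present, and the 4 T lineage markers to at most 9.64 FPKM. The part of these cells in the differences reported here was not tested.

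Chaperones were abundant in all 4 libraries. Their summed FPKM was 3901 in WT and 4516 in GRK6-/- HSC, and 4097 in WT and 3605 in GRK6-/- CLP, which was 0.614%, 0.651%, 0.634% and 0.602% of all FPKM. The 4 sums lay within a narrow range, highest in GRK6-/- HSC and lowest in GRK6-/- CLP. Among members with a row, the median level was 19.7, 13.2, 30.6 and 22.5 FPKM, above the median of all genes with a row (9.25 to 11.97 FPKM) in every library. Between 11 and 15 members a library reached 100 FPKM. Most of these were CCT subunits, Hsp90 genes and Hspe1, as the heat map of all members shows. The 9 CCT genes together made up 32.1% to 40.0% of the chaperone FPKM, and Hsp90ab1 alone 14.6% to 23.6%.

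**Figure D1:**
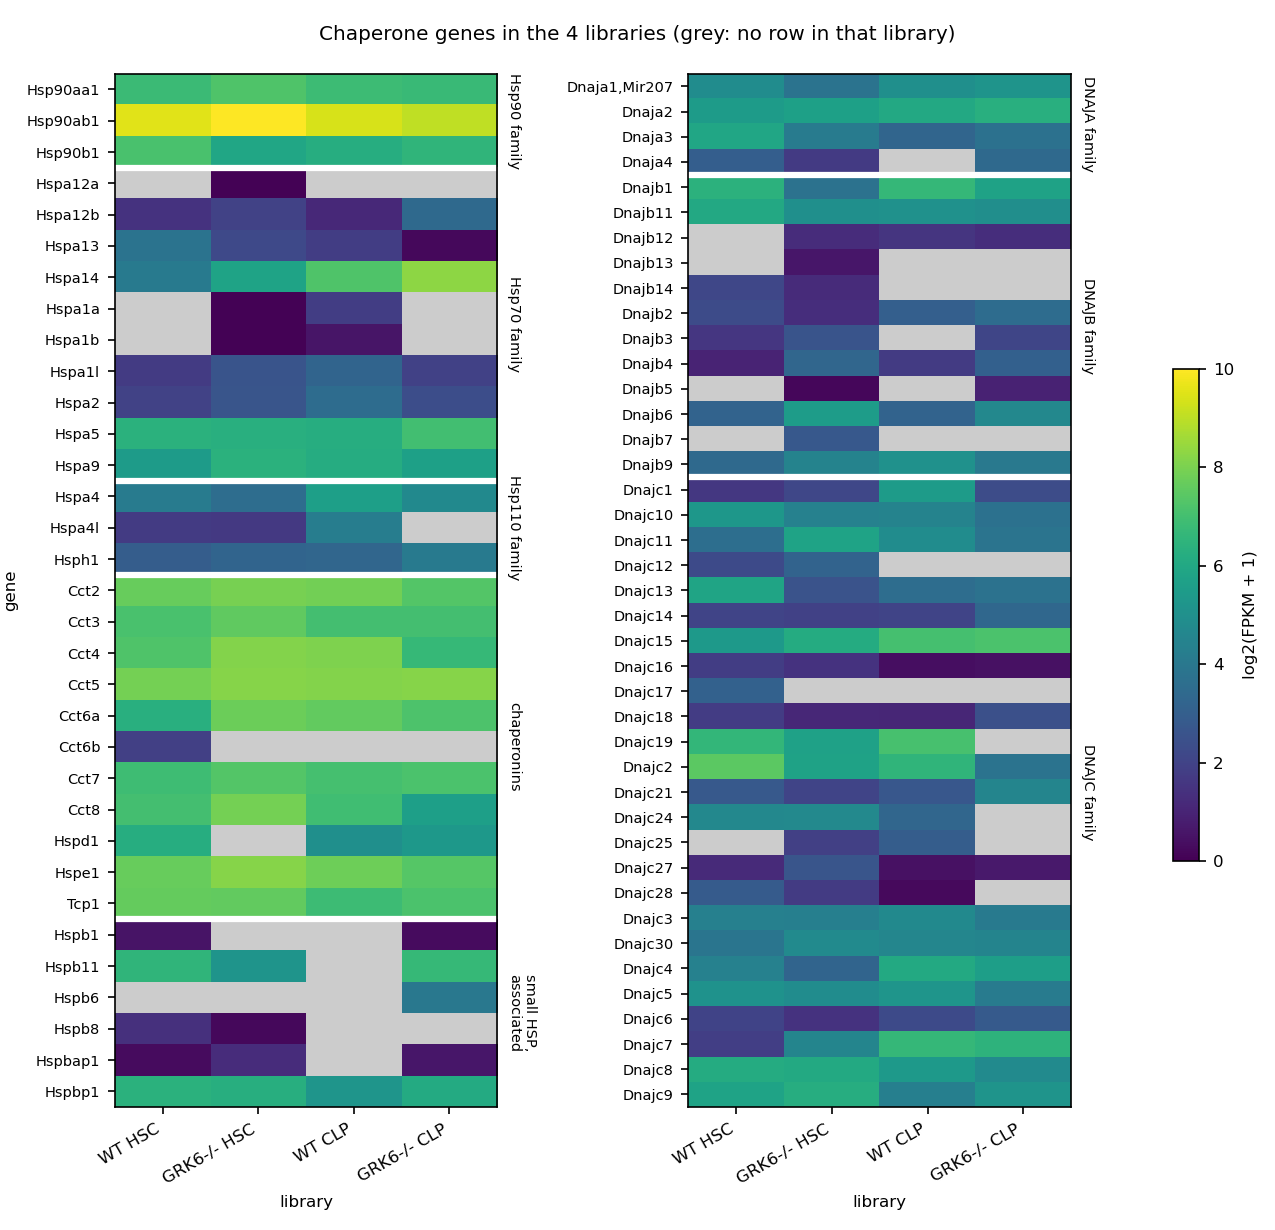
Level of the 74 chaperone genes in the 4 libraries, as log2(FPKM + 1) by colour, with genes as rows grouped by family and libraries as columns; grey cells have no row in that library. Hsp90ab1, the CCT subunits and Hspe1 are bright in every library, with CCT subunits other than Cct6b between 49.1 and 291 FPKM, and most small heat shock proteins and many DNAJB genes are dark or grey.

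Hspa8, the constitutive cytosolic Hsp70 (HSC70), had no row under its own symbol in any library. A row named LOC624853, without a gene identifier, lay at chr9:40609356-40613283 of mm9, inside the annotated Hspa8 gene. It had 1999 FPKM in WT and 1767 in GRK6-/- HSC, and 1726 in WT and 1505 in GRK6-/- CLP, more than any member. The rule on symbols leaves this row out, so it is given side by side and enters no count of members. Its log2 ratio was -0.18 in HSC and -0.20 in CLP. Reads from the many processed copies of Hspa8 in the genome could also be part of this value, which was not tested.

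Inducible and constitutive cytosolic chaperones were compared first in matched pairs. The members of the Hsp70, Hsp90 and Hsp110 pairs are close relatives, whereas those of the J-domain pair belong to different subfamilies (Dnajb and Dnaja). The inducible Hsp70 genes were low, with no row in a library of each population. Hspa1a had no row in WT and 0.0472 FPKM in GRK6-/- HSC, and 2.56 in WT and no row in GRK6-/- CLP. Its copy Hspa1b had 0.0469 FPKM in GRK6-/- HSC, 0.499 in WT CLP and no row in WT HSC and GRK6-/- CLP. The values in GRK6-/- HSC lay under the 0.131 FPKM that 1 fragment in 2 kb gives there, so at this depth they cannot be told from no row. The row at the Hspa8 locus stood between 1505 and 1999 FPKM in the same libraries.

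Hsp90ab1, the constitutive cytosolic Hsp90, was the most abundant member in every library. It had 743 FPKM in WT and 1067 in GRK6-/- HSC, and 667 in WT and 528 in GRK6-/- CLP. Its inducible relative Hsp90aa1 had 111, 151, 114 and 109 FPKM. The constitutive gene was 6.67, 7.08, 5.86 and 4.85 times the inducible gene in that order, and neither passed 2-fold between genotypes (log2 ratios of 0.52 in HSC and -0.34 in CLP for Hsp90ab1, and of 0.43 and -0.067 for Hsp90aa1).

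The Hsp110 pair, nucleotide exchange factors for Hsp70, lay below the Hsp90 pair in every library. Hspa4, the constitutive gene, had 16.8 FPKM in WT and 11.0 in GRK6-/- HSC, and 48.7 in WT and 25.9 in GRK6-/- CLP. Hsph1, the inducible gene (Hsp105), had 6.78, 8.46, 8.83 and 16.1 FPKM. The genes went in opposite directions in each population without passing 2-fold. Hspa4 had log2 ratios of -0.57 in HSC and -0.89 in CLP, and Hsph1 of 0.28 and 0.80. The ratio of Hspa4 to Hsph1 was therefore lower in both GRK6-/- libraries, at 1.30 against 2.48 in HSC and 1.61 against 5.51 in CLP.

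The J-domain pair, taken from different subfamilies, showed the only change of order. Dnajb1 (Hsp40), the inducible J-domain protein, had 84.3 FPKM in WT and 12.7 in GRK6-/- HSC, and 101 in WT and 52.6 in GRK6-/- CLP. Dnaja2, a constitutive partner of Hsp70, had 43.4, 50.1, 64.4 and 78.7 FPKM. Dnajb1 was above Dnaja2 in both WT libraries and below it in both GRK6-/- libraries, with a ratio of 1.94 and 1.57 in WT HSC and WT CLP against 0.253 and 0.668 in GRK6-/- HSC and GRK6-/- CLP. The difference in Dnajb1 passed the threshold in HSC (log2 ratio of -2.64) but not in CLP (-0.93). In the model for a genotype difference common to both populations, Dnajb1 had a log2 difference of -1.78 and an adjusted p of 0.999 over all genes (limma).

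**Figure D2:**
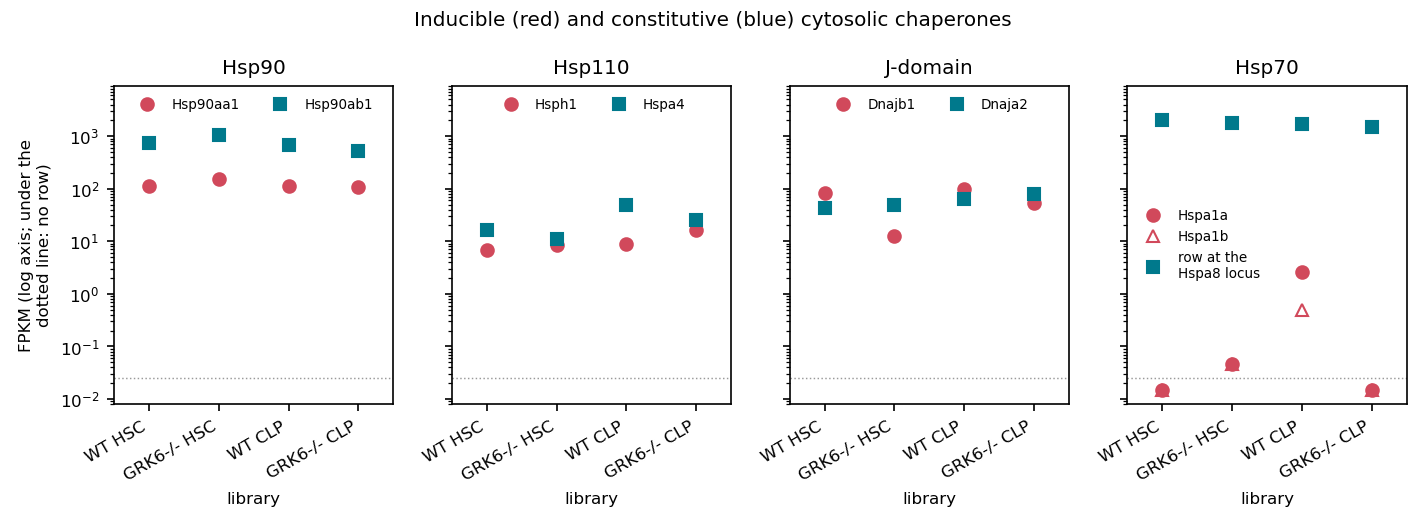
FPKM on a log axis of inducible (red) and constitutive (blue) members of the Hsp90, Hsp110, J-domain and Hsp70 classes in the 4 libraries, 1 point per gene and library; points under the dotted line have no row. Hsp90ab1 lies above Hsp90aa1 and the row at the Hspa8 locus above Hspa1a and Hspa1b in all 4 libraries, and Dnajb1 lies above Dnaja2 in the 2 WT libraries alone.

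The same comparison over the whole lists rested on few genes. The 7 inducible genes (Hspa1a, Hspa1b, Hsp90aa1, Hsph1, Dnajb1 and the small heat shock proteins Hspb1 and Hspb8) summed to 205 FPKM in WT and 172 in GRK6-/- HSC, and 227 in WT and 178 in GRK6-/- CLP. The 5 constitutive genes with a row (Hsp90ab1, Hspa4, Hspa14, Dnaja2 and Dnajc7) summed to 822, 1205, 1030 and 1035 FPKM. The ratio of inducible to constitutive was 0.249, 0.143, 0.220 and 0.172, lower in the GRK6-/- library of each population. With the row at the Hspa8 locus among the constitutive genes the ratio was 0.0725, 0.0579, 0.0822 and 0.0699, in the same order between genotypes. In the matched pairs alone, without that row, it was 0.252, 0.152, 0.290 and 0.281, so that the gap between genotypes in CLP was small. Much of the gap between genotypes rested on Dnajb1, and in the matched pairs its direction in CLP rested on the J-domain pair. With Dnajb1 left out, the ratio over the whole lists was 0.146, 0.132, 0.122 and 0.121, nearly equal between the genotypes in CLP. In the matched pairs without Dnajb1 and Dnaja2 it was 0.156, 0.148, 0.176 and 0.225, higher in GRK6-/- than in WT CLP.

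By counts, no inducible gene was past 2-fold higher in either GRK6-/- library. In HSC, Dnajb1 and Hspb8 of the 7 were lower (28.6%, beside a background of 18% of all genes lower), and the median log2 ratio of the list was 0.066, which turned to -0.45 over the 4 genes with a row in both libraries. In CLP, Hspa1a of 6 was lower (16.7%, background 23.4%), by a row in WT CLP alone, and the median was -0.33. With lists this short, the counts are given as a description. Hspb8, a partner of Bag3 in autophagy of misfolded protein, had 1.61 FPKM in WT and 0.152 in GRK6-/- HSC, and no row in CLP. Hspb1 (Hsp25) had 0.454 FPKM in WT HSC and 0.235 in GRK6-/- CLP and no row elsewhere, so the small heat shock proteins hardly entered the inducible sum.

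Of the constitutive genes, 2 of 5 were past 2-fold higher in GRK6-/- HSC (40%, background 19.3%), with a median log2 ratio of 0.52. In GRK6-/- CLP it was 1 of 5 (20%, background 26.6%), with a median of -0.20. Hspa14, an Hsp70 that sits on the ribosome with a J-domain partner, was the one that was higher in both. It had 16.3 FPKM in WT and 54.9 in GRK6-/- HSC, and 151 in WT and 317 in GRK6-/- CLP, and its log2 ratios were 1.69 and 1.07. Dnajc7, a J-domain protein that passes clients between Hsp70 and Hsp90, had 2.62, 22.2, 99.2 and 86.3 FPKM, with log2 ratios of 2.68 in HSC and -0.20 in CLP. Exons of Dnajc7 overlap those of genes on the opposite strand, and the counting was not stated to use strand. This holds for 17 of the 74 members, among them Dnajb6, Cct7, Cct8, Tcp1, Dnaja3, Dnajc1 and Dnajc19.

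Across all members, differences between GRK6-/- and WT HSC were as frequent as in the rest of the genes. Of 72 members with a value in a row of their own, 27 were past 2-fold (37.5%), beside 37.4% of all 11624 genes. In GRK6-/- HSC, 12 members were higher (background 19.3%) and 15 lower (background 18%). The median log2 ratio was 0.066 over the members and 0.048 over all genes. With a row in both libraries 21 of 60 members were past 2-fold (35%), beside 34.7% of genes. A share this near the background is not a result about chaperones as a class.

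In CLP the share was lower than the background. Of 65 members with a value, 26 were past 2-fold (40%), beside 50% of all 11191 genes. Of these, 11 were higher in GRK6-/- CLP (background 26.6%) and 15 lower (background 23.4%), and the median log2 ratio was -0.067 beside 0.051 over all genes. With a row in both libraries, 17 of 51 members (33.3%) and 45% of genes were past the threshold. Among members and genes with at least 10 FPKM in 1 of the libraries the shares were 33.3% (15 of 45) and 50.7% in CLP, and 40% (16 of 40) and 38.3% in HSC. These shares are given as a description.

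By role, the CCT subunits were by their median highest in GRK6-/- HSC, where they also lay closest together. The median of the 8 subunits of the ring (all but the testis form Cct6b) was 143.8, 227, 161 and 142 FPKM. The subunits lay between 78.2 and 239 FPKM in WT HSC, between 158 and 286 in GRK6-/- HSC, between 115 and 282 in WT CLP and between 49.1 and 291 in GRK6-/- CLP. The highest was 3.06, 1.81, 2.46 and 5.92 times the lowest in that order. The subunits of the ring are assembled in equal numbers, so these ratios give how far RNA levels of 1 complex lay apart here. Cct5 was the most abundant subunit in every library, at 239, 286, 282 and 291 FPKM, and differed little between them.

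In GRK6-/- CLP, Cct8 and Cct4 were the lowest subunits. Cct8 had 127 FPKM in WT and 237 in GRK6-/- HSC, and 121 in WT and 49.1 in GRK6-/- CLP, with log2 ratios of 0.90 in HSC and -1.28 in CLP. Cct4 had 150, 285, 264 and 103 FPKM, with log2 ratios of 0.92 and -1.35. Both were highest in GRK6-/- HSC and lowest in GRK6-/- CLP. Cct6a had 78.2, 217, 190 and 147 FPKM and was the only subunit past 2-fold higher in GRK6-/- HSC (log2 ratio of 1.46). Cct2, Cct3, Cct7 and Tcp1 had log2 ratios from -0.026 to 0.46 in HSC and from -0.55 to 0.30 in CLP, all short of 2-fold. Cct6b had 2.68 FPKM in WT HSC and no row in the other libraries.

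**Figure D3:**
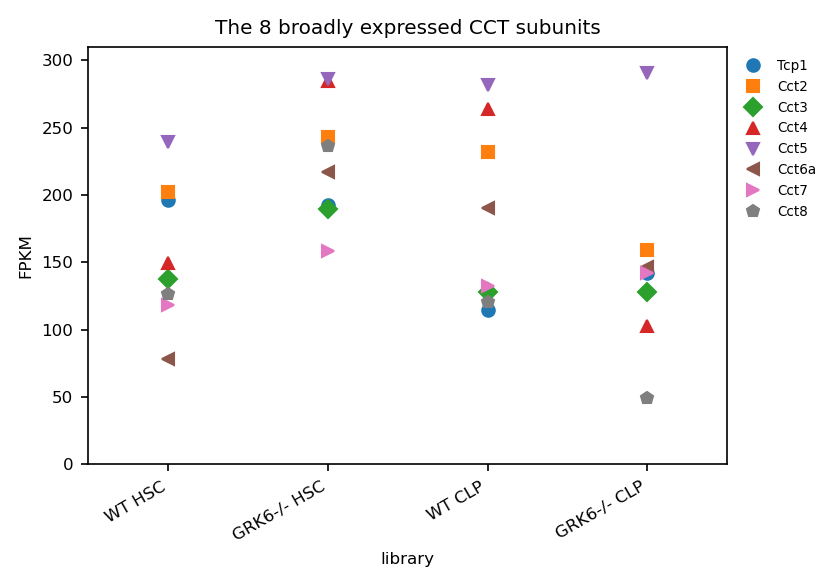
FPKM of the 8 CCT subunits of the ring in the 4 libraries on a linear axis from 0, 1 symbol per gene. The subunits lie closest together in GRK6-/- HSC (158 to 286 FPKM) and farthest apart in GRK6-/- CLP (49.1 to 291 FPKM), where Cct8 is lowest.

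The mitochondrial chaperones were led by Hspe1 (Hsp10), the lid of the mitochondrial chaperonin. It had 202 FPKM in WT and 290 in GRK6-/- HSC, and 221 in WT and 163 in GRK6-/- CLP, with log2 ratios of 0.52 and -0.43. Hspd1 (Hsp60), the barrel of the same chaperonin, shares with it the promoter shown above and had 74.8 FPKM in WT and no row in GRK6-/- HSC, and 30.6 in WT and 39.6 in GRK6-/- CLP. No other row of the GRK6-/- HSC library overlapped the Hspd1 locus. In that library, 8 of the 1574 genes with at least 30 FPKM in each of the 3 other libraries had no row, so a missing row for a gene at this level was rare but not confined to Hspd1. Whether the transcript was absent or the row was lost was not tested.

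Hspa9 (mortalin), the Hsp70 of the matrix, had 43.9 FPKM in WT and 83.7 in GRK6-/- HSC, and 72.1 in WT and 50.9 in GRK6-/- CLP, with log2 ratios of 0.92 and -0.49. Dnaja3 (Tid1), its J-domain partner, had 59.2, 16.7, 8.64 and 12.3 FPKM, with log2 ratios of -1.76 and 0.47. The ratios of the Hsp70 and its partner had opposite signs in both populations, with Dnaja3 past 2-fold in HSC alone. Dnajc11, a protein that helps to shape the inner membrane, had 11.3, 54.3, 28.1 and 13.3 FPKM and was past 2-fold higher in GRK6-/- HSC (2.17) and lower in GRK6-/- CLP (-1.03). Dnajc15 and Dnajc19 belong to the import motor, which pulls proteins into the matrix. Dnajc15 had 39.9, 69.9, 131 and 141 FPKM, with log2 ratios of 0.79 and 0.11. Dnajc19 had 97.0, 52.3 and 135 FPKM and no row in GRK6-/- CLP, where the overlapping gene Fxr1 on the opposite strand had a row of 20.8 FPKM. Over the 7 mitochondrial genes, 1 was higher and 2 were lower in GRK6-/- HSC (42.9% past 2-fold, beside 37.4% of all genes), and 2 were lower in GRK6-/- CLP (28.6%, beside 50%).

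Of 10 ER chaperones in HSC, 2 were past 2-fold higher and 3 lower in the GRK6-/- library (50%, beside 37.4% of all genes), with a median log2 ratio of -0.48. Of 9 in CLP, none was higher and 3 were lower (33.3%, beside 50% of all genes), with a median of -0.62. Hspa5 (BiP), whose promoter is shown above, had 82.2 FPKM in WT and 78.7 in GRK6-/- HSC, and 74.1 in WT and 125 in GRK6-/- CLP, with log2 ratios of -0.062 and 0.75. Hsp90b1 (Grp94) had 140, 59.2, 73.2 and 93.4 FPKM, with log2 ratios of -1.23 and 0.35. The ER Hsp70 therefore stayed under 2-fold in both populations, and the ER Hsp90 was lower in GRK6-/- HSC alone.

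Hspa13 (Stch), an ER Hsp70 without the peptide-binding domain, was lower in both GRK6-/- libraries. It had 13.1 FPKM in WT and 3.62 in GRK6-/- HSC, and 2.55 in WT and 0.175 in GRK6-/- CLP, with log2 ratios of -1.61 and -1.60. The last value is about what 1 fragment in 2 kb gives in that library (0.179 FPKM). Dnajb9 (ERdj4), which holds the stress sensor IRE1 inactive, had 9.55, 21.4, 32.2 and 15.3 FPKM, with log2 ratios of 1.09 and -1.02. Dnajb11 (ERdj3), a BiP partner, had 65.3, 30.4, 32.6 and 29.6 FPKM and was lower in GRK6-/- HSC (-1.08). Dnajc1 (ERdj1), which recruits BiP to ribosomes at the ER, had 2.10, 3.43, 43.6 and 3.97 FPKM and was lower in GRK6-/- CLP (-3.17). It was high in WT CLP alone. Dnajc3 and Dnajc10 (ERdj5, a reductase) had log2 ratios from -0.90 to -0.055, and Dnajb12 and Dnajb14, J-domain proteins of the ER membrane, did not exceed 3.34 FPKM in any library.

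**Figure D4:**
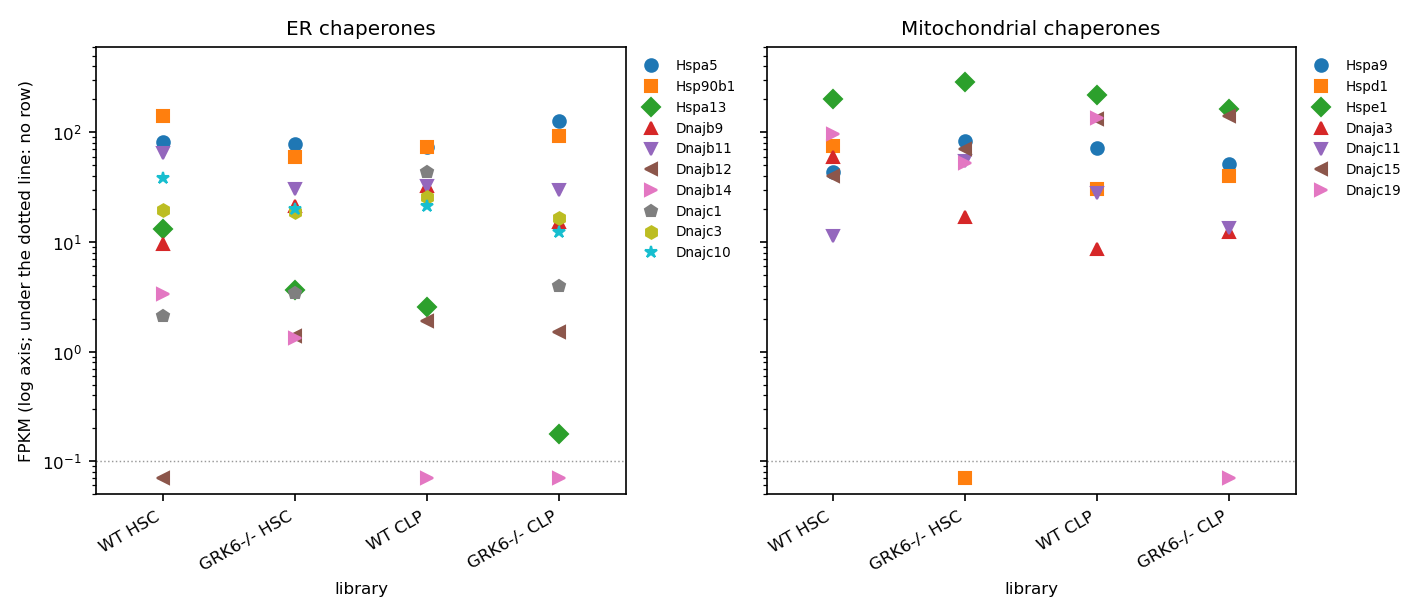
FPKM on a log axis of the 10 ER and the 7 mitochondrial chaperones in the 4 libraries, 1 symbol per gene; symbols under the dotted line have no row. Hspa5 and Hsp90b1 lie at 59.2 to 140 FPKM in every library, Hspa13 is lowest in GRK6-/- CLP (0.175 FPKM), and Hspd1 and Dnajc19 each lack a row in 1 GRK6-/- library.

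Of the 64 members with a value in both populations, 4 were past 2-fold higher in both GRK6-/- libraries (6.25%, background 5.66%), namely Dnajb3, Dnajb4, Dnajb6 and Hspa14. Dnajb6, which carries a strict heat shock element in its promoter, had 8.09 FPKM in WT and 44.7 in GRK6-/- HSC, and 8.02 in WT and 24.4 in GRK6-/- CLP, with log2 ratios of 2.33 and 1.49. The WT libraries were nearly equal and both GRK6-/- libraries were higher. Of the other genes with the strict element, Hspe1 stayed under 2-fold in both populations. Hspd1 had no row in GRK6-/- HSC and stayed under 2-fold in CLP. The part of the element in these differences was not tested. Dnajb4, another J-domain partner of Hsp70, had 1.01, 8.77, 2.36 and 7.31 FPKM, with log2 ratios of 2.28 and 1.30. Dnajb3 had 1.96 and 5.04 FPKM in WT and GRK6-/- HSC, no row in WT CLP and 3.25 in GRK6-/- CLP.

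Lower in both were Dnajc2 and Hspa13, 2 of 64 (3.12%, background 4.43%). Dnajc2 (zuotin), the J-domain partner of Hspa14 on the ribosome, had 176 FPKM in WT and 53.8 in GRK6-/- HSC, and 92.7 in WT and 13.2 in GRK6-/- CLP, with log2 ratios of -1.69 and -2.72. The members of the ribosome-associated complex thus differed in opposite directions, Hspa14 being higher and Dnajc2 lower in both GRK6-/- libraries. Hspa14 was below Dnajc2 in WT HSC, near it in GRK6-/- HSC (54.9 against 53.8 FPKM) and above it in both CLP libraries. In the limma model, Dnajc2 had a log2 genotype difference of -2.21 (unadjusted p = 0.0457, adjusted p = 0.999 in the fit across all genes). Opposite directions past 2-fold were found for 5 members (7.81%, background 10.8%), namely Dnaja4, Dnajb9, Dnajc11, Dnajc25 and Hspb11.

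**Figure D5:**
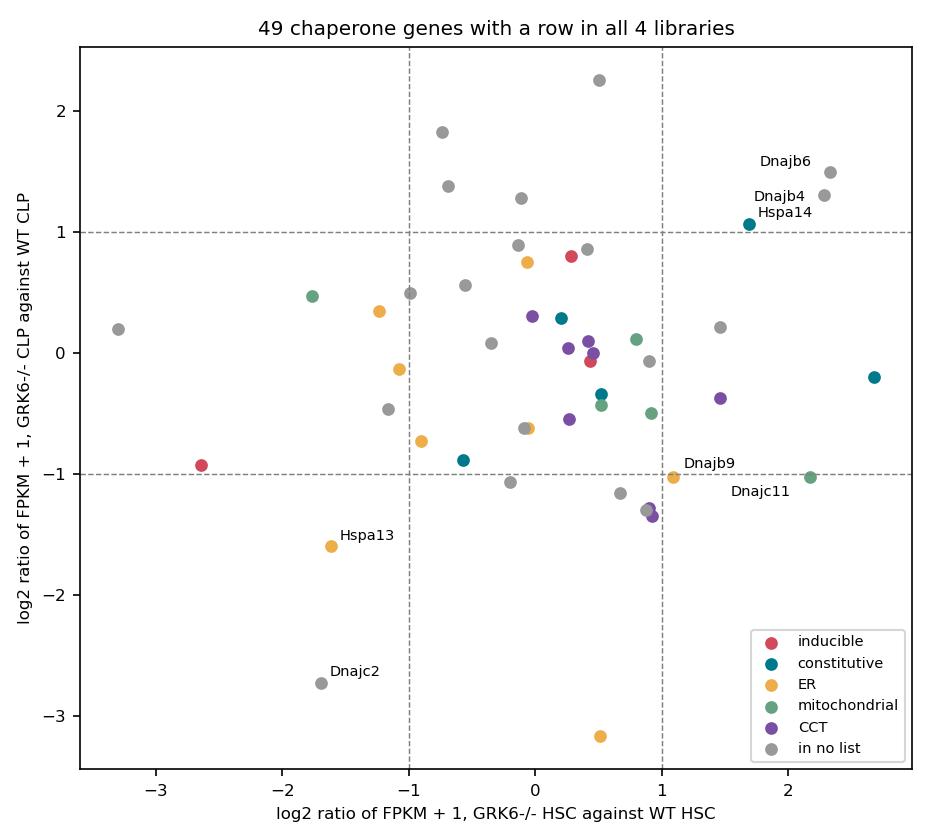
Log2 ratio of FPKM + 1 between GRK6-/- and WT in HSC (horizontal) and CLP (vertical) for the 49 members with a row of their own in all 4 libraries, coloured by list; dashed lines mark 2-fold. Dnajb4, Dnajb6 and Hspa14 lie past both lines at the upper right, Dnajc2 and Hspa13 at the lower left, and Dnajb9 and Dnajc11 at the lower right.

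Other named members were high or low in a single library. In HSC, Dnajc13 (RME-8), which works with Hsc70 on endosomes, had 56.5 FPKM in WT and 4.85 in GRK6-/- HSC, with 10.9 and 12.6 in WT and GRK6-/- CLP (log2 ratios of -3.30 and 0.19). It was high in WT HSC alone. Hspb11 had 92.4, 35.0 and 104 FPKM in WT HSC, GRK6-/- HSC and GRK6-/- CLP and no row in WT CLP. In CLP, Dnajc21, a factor of ribosome assembly, had 5.65 FPKM in WT and 22.5 in GRK6-/- cells (log2 ratio of 1.82). It had 5.96 and 3.17 FPKM in WT and GRK6-/- HSC (-0.74). Hspa4l, the third Hsp110 protein, had 2.33, 2.12 and 18.0 FPKM and no row in GRK6-/- CLP, so that it was high in WT CLP alone. Hspb6 (Hsp20) had a row of 14.9 FPKM in GRK6-/- CLP and none elsewhere. The neighbouring gene Lin37, on the opposite strand, had a row overlapping the Hspb6 locus in each of the other 3 libraries.

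Hspa2, known from male germ cells, had 10.6 FPKM in WT CLP and 4.21 in GRK6-/- CLP (log2 ratio of -1.15), and Dnajc5, a chaperone of synaptic and secretory vesicles, had 36.1 and 16.7 (-1.06). Hspbp1, Dnajc9, a histone chaperone, and Hsph1 were higher in GRK6-/- CLP by log2 ratios of 0.80 to 0.89, short of 2-fold. Dnaja1, a constitutive and heat-responsive partner of Hsp70, was named jointly with the microRNA gene Mir207 in every library and was kept out of the counts. This row had 28.0, 13.2, 30.6 and 35.4 FPKM, with log2 ratios of -1.03 and 0.20.

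A few members were seen in a single library. Dnajb13, Dnajb7 and Hspa12a had a row in GRK6-/- HSC alone and Dnajc17 in WT HSC alone, none above 7.53 FPKM. Of 84 annotated protein-coding symbols that fit the rule, 10 had no row in any library. Besides Hspa8 these were Cct8l1, Dnajb8, Dnajc22, Dnajc5b, Dnajc5g, Hspb2, Hspb3, Hspb7 and Hspb9, several of them known from muscle or testis.

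Between populations, differences were again about as frequent as in all genes. In WT mice, 32 of 68 members (47.1%, background 46.5%) differed by 2-fold between CLP and HSC, and in GRK6-/- mice 35 of 71 (49.3%, background 45.6%). Both CLP libraries were at least 2-fold above both HSC libraries for 3 of 73 members (4.11%, background 3.37%), namely Dnajc4, Dnajc7 and Hspa14. Dnajc4 had 19.8 and 8.29 FPKM in WT and GRK6-/- HSC and 66.3 and 47.8 in WT and GRK6-/- CLP. The Dnajc7 and Hspa14 values above show the same order, and the HSC and CLP values did not overlap. In limma, the population difference was 3.35 for Dnajc7 and 2.82 for Hspa14 on the log2 scale (unadjusted p of 0.0119 and 0.0155, both with an adjusted p of 0.782).

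Both CLP libraries were at least 2-fold below both HSC libraries for 5 members (6.85%, background 3.78%), all J-domain proteins. Dnajc24, which serves the synthesis of diphthamide in elongation factor 2, had 24.5 and 25.5 FPKM in WT and GRK6-/- HSC, 8.85 in WT CLP and no row in GRK6-/- CLP. A row of the neighbouring gene Immp1l, of 22.8 FPKM, overlapped the Dnajc24 locus in GRK6-/- CLP. Dnajb14, Dnajc12, Dnajc16 and Dnajc28 did not exceed 8.16 FPKM in any library, and 3 of them lacked a row in at least 1 CLP library. Dnajc9 and Dnaja3 were also lower in WT CLP than in WT HSC (log2 ratios of -1.49 and -2.64). Between GRK6-/- CLP and GRK6-/- HSC their log2 ratios were -1.04 and -0.41, so Dnaja3 stayed short of 2-fold there.

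Transcription factors and partners of the chaperones were read from lists. Hsf1, the regulator of the inducible genes, had 34.0 FPKM in WT and 32.9 in GRK6-/- HSC, and 49.1 in WT and 11.7 in GRK6-/- CLP, with log2 ratios of -0.047 and -1.98. It was past 2-fold lower in GRK6-/- CLP alone. Hsf2 did not exceed 2.02 FPKM, Hsf4 and Hsf5 had no row, and Hsbp1, which binds HSF1, had log2 ratios of 0.20 and -0.94. Of 31 co-chaperones outside the families, 5 were higher and 4 lower past 2-fold in GRK6-/- HSC (29%, beside 37.4% of all genes), and 4 of 30 were higher and 6 lower in GRK6-/- CLP (33.3%, beside 50%). Chordc1, an Hsp90 partner whose gene is heat-inducible, had 4.54, 22.3, 5.01 and 57.1 FPKM, higher in both GRK6-/- libraries (2.07 and 3.27). Trap1, the mitochondrial Hsp90, had 185, 71.8, 104 and 41.9 FPKM, lower in both (-1.36 and -1.30). Chordc1 and Trap1 were named after their values were seen.

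Of 16 genes of the unfolded protein response, 3 were higher and none lower past 2-fold in GRK6-/- HSC (18.8%, beside 37.4% of all genes), and 4 of 15 were higher and 1 lower in GRK6-/- CLP (33.3%, beside 50%). Both shares lay below the background. Xbp1, a transcription factor of this response, had 80.1, 67.0, 33.2 and 169.8 FPKM, and Ddit3, the stress factor CHOP, had 64.2 FPKM in GRK6-/- HSC and no row elsewhere, both named after their values were seen. Immediate early genes, which respond to the handling of cells, summed to 210, 302, 774 and 527 FPKM. Of these 8 genes, 2 were higher and 1 lower in GRK6-/- HSC (37.5%, beside 37.4% of all genes), and of 7 with a value 1 was higher and 2 were lower in GRK6-/- CLP (42.9%, beside 50%). The sum was higher in both CLP libraries than in both HSC libraries, and its part in the chaperone differences was not tested.

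A genotype difference common to both populations was tested by limma across 11230 genes with the population as a term and 1 residual degree of freedom. The fit takes the populations as replicates of each other, so its p-values do not measure spread between mice. No gene had an adjusted p under 0.05 (lowest 0.0587), and 500 (4.45%) had an unadjusted p under 0.05. Of the 68 members tested, 0 had an adjusted p under 0.05 (lowest 0.999) and 2, Dnajc19 and Dnajc2, had an unadjusted p under it. For the difference between populations, 0 of the 68 members passed (lowest adjusted p of 0.782) and 5 had an unadjusted p under 0.05. Over all 11230 genes, 608 (5.41%) had an unadjusted p under 0.05 for this difference, and 1 had an adjusted p under 0.05. With 4 libraries the model cannot show that a member did not differ.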

How the data were processed

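RNA-seq of sorted HSC and CLP was analysed in 4 libraries, 1 per group, grouped by their labels. The authors deposited FPKM values, 1 table per library with gene symbol, locus and FPKM, made by them with the Tuxedo suite. The submitters' processing notes name TopHat 1.4.0 and mm9, and counts, confidence bounds and strand settings are not given in the sources used here. Locus starts in the files are counted from 0 and are printed from 1.

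Rows with the same symbol were summed, and genes named in a joint row in any library (333 of 12750 names) were left out, except that the row of Dnaja1 is described apart. Differences were log2 ratios of FPKM + 1, past the threshold at 2-fold. A common genotype difference was tested with limma 3.58.1 (R 4.3.3) and Benjamini-Hochberg adjustment over all genes. Other steps used Python 3.11.15, numpy 2.4.6, pandas 2.3.3 and matplotlib 3.10.9. The fold, depth and limma scripts were tested on simulated data. Depth was estimated from the FPKM steps of genes with a single transcript, and covers counting only. Replicates were not analysed, as each group had 1 library.

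Genes named were the matched pairs, all genes of the CCT, ER and mitochondrial lists, for each population the 8 members most above and the 8 most below WT among those with at least 10 FPKM in 1 of its libraries, and members past the threshold in both populations. Others were chosen after their values were seen. The members and the lists were chosen with earlier results of these data known. Alternatives were pseudocounts, filters on low FPKM, rescaling, a 4-fold threshold, the highest row per symbol and joint rows kept, and, chosen after seeing the data, rows in both libraries, the row at the Hspa8 locus and the ratio without Dnajb1. Promoters came from RefSeq, with build GRCm38.p6, and were matched by symbol for 63 members. Exon overlaps came from GENCODE vM1, which uses the coordinates of mm9.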

Additional observations from a re-analysis of the deposited data

Results flagged for a closer look

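In 5 members the GRK6-/- library was past 2-fold from WT in opposite directions in HSC and CLP. With 1 library a group this difference was not tested. Dnajb9 had log2 ratios of 1.09 in HSC and -1.02 in CLP, and Dnajc11 of 2.17 and -1.03. Dnaja4, a J-domain partner of Hsp70, had a log2 ratio of -1.30 in HSC, and in CLP a row of 9.64 FPKM in the GRK6-/- library alone. Hspb11 had a log2 ratio of -1.38 in HSC, and in CLP a row of 104 FPKM in the GRK6-/- library alone. Dnajc25 had a row of 2.70 FPKM in the GRK6-/- library alone in HSC, and one of 6.69 in the WT library alone in CLP. Exons of Dnaja4 and Dnajc25 overlap those of another gene. The share of members with opposite directions (7.81%) was below that of all genes (10.8%).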

How the results depend on the processing

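With 1 library a group, genotypes could be paired only within a population, as the limma fit with population as a term does. The number of members past the threshold (27 in HSC, 26 in CLP, 32 between the WT populations and 35 between the GRK6-/- populations) was 12, 10, 15 and 16 with a pseudocount of 10, 16, 15, 19 and 21 with at least 10 FPKM required, and 9, 11, 13 and 11 at an absolute log2 ratio of 2. With a row required in both libraries it was 17 in CLP and 21 between the WT populations. The median of the members in HSC was 0.26 with a pseudocount of 0.1. The inducible median was the least settled, since it moved in HSC to 0.32 with a pseudocount of 0.1, -0.45 with at least 1 FPKM or a row in both libraries and -1.10 with at least 10 FPKM, and in CLP to -0.50 with a pseudocount of 0.1, -0.066 with a pseudocount of 10, -0.50 with at least 1 FPKM and -0.067 with at least 10 FPKM or a row in both. These filters leave fewer genes. With the row at the Hspa8 locus the constitutive median in HSC was 0.36. The ratio of inducible to constitutive FPKM was 0.0725, 0.0579, 0.0822 and 0.0699 with that row, and 0.0723, 0.0594, 0.0904 and 0.0830 in matched pairs with it, and for GRK6-/- CLP 0.281 in matched pairs without it. In each of these versions, and without Hspa1a and Hspa1b, it was lower in the GRK6-/- library of each population, but all of them hold Dnajb1. Without Dnajb1, chosen after seeing the data, it was 0.146, 0.132, 0.122 and 0.121, and in matched pairs without Dnajb1 and Dnaja2 0.156, 0.148, 0.176 and 0.225, higher in GRK6-/- than in WT CLP. Pseudocounts, filters and the stricter threshold cannot change the direction of a ratio. Rescaling moved ratios too little to reverse one past the threshold. Under the other ways of handling rows, no named gene past the threshold changed its direction. Of 973 values of named genes, 49 fell below the threshold in force, 27 of them at the stricter threshold and 21 with a pseudocount of 10. The adjusted p of every member stayed above 0.05 in each fit of limma.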
